A study of Homo sapiens with 8 samples.

Results

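The clustered protocadherin genes lie in 3 neighbouring families on chromosome 5, PCDHA (alpha), PCDHB (beta) and PCDHG (gamma). Their open regions were taken as every peak on chromosome 5 that overlapped the body, or 10 kb on each side, of a RefSeq gene whose symbol starts with PCDHA, PCDHB or PCDHG. This rule used positions and no measured values, and it gave 23 of the 129536 peaks in the table. The 53 protein-coding genes span 140786140 to 141512975 (GRCh38), about 727 kb. All 23 peaks passed the filter on low counts.

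Accessibility was measured by ATAC-seq, in which a transposase cuts and tags open DNA in isolated nuclei. The cells were HEK293, a human embryonic kidney line, and the genotype field gives eGFP-YAP for all 8 libraries, so the controls carry the tagged YAP as well. Whether the line is 1 clone is not stated in the labels, the titles name HEK293 alone, and the library names hold the letters wt. The series text describes 1 h without serum before the stress. There were 4 vehicle libraries, whose names give a control at 0 h. Another 4 libraries came from cells held for 1 h in 0.2 M sorbitol, a sugar alcohol that makes the medium hyperosmotic. No vehicle library is labelled 1 h, so by these labels sorbitol and the added time cannot be told apart. Nothing states that the 4 libraries of a group came from separate cultures, so p-values measure the spread between these libraries, which may be technical.

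Library totals in peaks ranged from 11522266 to 19831471 counts, of which 982 to 2123 fell in the 23 peaks. Vehicle 4 and sorbitol 4 had median log2 deviations from the mean of all libraries of 0.34 and -0.30, over 477 peaks on contigs outside the main chromosomes. The other vehicle libraries had -0.29 to -0.07 and the other sorbitol libraries 0.08 to 0.28, so both libraries lay on the side of the opposite group. Results that change without them are given both ways. Of 5 genes taken to mark the line, LHX1, EYA1 and SALL1 had a peak within 1 kb of an end of the gene, and PAX2 and LIN28B had none. Of 6 genes of other cell types, 2 had such a peak, PTPRC and PECAM1. These are accessibility values and do not measure expression.

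Clustered protocadherins are cadherin-like adhesion proteins of the cell surface, best known from neurons, where each cell uses a few of them and so carries its own surface identity. Every gene has its own first exon with its own promoter. In the alpha and gamma families these exons are spliced to shared constant exons at the end of the family, whereas beta genes have no shared exons. The C-type genes, at the end of the alpha and gamma arrays, are known to be used more broadly than the alternate genes. Most promoters hold a conserved sequence element with the core CGCT, which CTCF binds, and cohesin joins chosen promoters to distant enhancers, among them one downstream of the alpha exons. The files used here give no positions of those enhancers, so peaks away from promoters are named by position alone.

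The promoters are shown first because 15 of the 23 peaks lay within 1 kb of a clustered protocadherin start. Of the 53 protein-coding genes, 47 matched the RefSeq promoter table (GRCh38.p14), all on the plus strand. The letters GNCGCTG were searched on both strands in 250 bases before to 50 after the start. They occurred in 36 of 47 clustered protocadherin promoters (76.6%) and in 25.1% of 27305 genes of the table. The core CGCT alone was in 46 of 47, and in 69.3% of all genes. Along the gene's strand, 33 of the 36 matches began 30 to 100 bases before the start. The following 38-base windows are aligned on the match, with CGCT in capitals, with their flanks. The first 10 belong to the genes that had both a peak and a match, and the last 6 to genes with no peak in the table.
PCDHA8: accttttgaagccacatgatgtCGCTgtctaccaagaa
PCDHA10: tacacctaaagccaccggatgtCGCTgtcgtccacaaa
PCDHB8: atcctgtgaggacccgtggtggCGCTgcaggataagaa
PCDHB13: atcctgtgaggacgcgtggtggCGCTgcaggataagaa
PCDHGA1: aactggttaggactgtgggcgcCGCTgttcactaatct
PCDHGA7: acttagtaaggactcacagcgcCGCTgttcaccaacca
PCDHGA10: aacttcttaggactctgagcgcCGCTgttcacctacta
PCDHGA11: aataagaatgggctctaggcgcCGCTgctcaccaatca
PCDHGC3: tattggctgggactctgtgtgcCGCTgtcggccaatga
PCDHGC4: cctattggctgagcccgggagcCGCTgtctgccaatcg
PCDHA1: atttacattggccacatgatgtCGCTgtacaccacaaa
PCDHA6: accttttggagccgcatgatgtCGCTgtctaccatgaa
PCDHB2: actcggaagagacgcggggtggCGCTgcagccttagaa
PCDHGA2: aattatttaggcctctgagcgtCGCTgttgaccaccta
PCDHGB1: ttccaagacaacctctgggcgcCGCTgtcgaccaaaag
PCDHGA9: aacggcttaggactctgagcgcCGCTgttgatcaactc

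All 6 alpha matches had the form GTCGCTG, which 6 of 20 gamma promoters, PCDHGA2 among them, and 3.35% of all promoters also hold. All 12 beta matches had the form GGCGCTG, found in 3 of 20 gamma promoters and 11.4% of all. The form GCCGCTG was in 12 of 20 gamma promoters and in no alpha or beta promoter, against 10.9% of all. The forms are special cases of GNCGCTG and overlap it. Of the 10 matches at a gene with a peak, 7 lay inside the peak. GNCGCTG was held by 10 of 15 promoters with a peak and by 26 of 32 without. A general CTCF core motif, read on both strands, was in 1 of 47 clustered promoters and in 2.5% of all genes. These matches describe letters in this window and show no binding.

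The 3 C-type promoters with a peak, which had the strongest start peaks, were richer in G and C than most of the others. The 250 bases before the start are given here for the C-type genes with a peak, and for PCDHA11, whose peak fell after sorbitol. CGCT is in capitals. Positions are 140868707 to 140868956 for PCDHA11, 140926049 to 140926298 for PCDHAC1, 141475716 to 141475965 for PCDHGC3 and 141484780 to 141485029 for PCDHGC4, all on the plus strand of chromosome 5 (GRCh38.p14).
PCDHA11: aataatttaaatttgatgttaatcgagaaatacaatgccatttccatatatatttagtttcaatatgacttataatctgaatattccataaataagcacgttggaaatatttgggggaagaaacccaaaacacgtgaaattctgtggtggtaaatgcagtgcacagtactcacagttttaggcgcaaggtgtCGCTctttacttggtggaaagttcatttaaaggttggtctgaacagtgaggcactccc
PCDHAC1: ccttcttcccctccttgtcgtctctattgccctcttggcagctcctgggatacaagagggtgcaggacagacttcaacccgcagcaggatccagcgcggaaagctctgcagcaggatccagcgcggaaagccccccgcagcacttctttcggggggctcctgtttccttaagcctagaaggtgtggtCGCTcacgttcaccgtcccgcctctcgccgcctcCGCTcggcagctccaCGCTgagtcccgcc
PCDHGC3: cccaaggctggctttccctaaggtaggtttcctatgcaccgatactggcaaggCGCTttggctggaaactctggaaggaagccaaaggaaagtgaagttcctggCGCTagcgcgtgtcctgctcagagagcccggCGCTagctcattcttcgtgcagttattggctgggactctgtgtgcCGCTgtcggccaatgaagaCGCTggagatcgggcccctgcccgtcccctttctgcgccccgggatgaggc
PCDHGC4: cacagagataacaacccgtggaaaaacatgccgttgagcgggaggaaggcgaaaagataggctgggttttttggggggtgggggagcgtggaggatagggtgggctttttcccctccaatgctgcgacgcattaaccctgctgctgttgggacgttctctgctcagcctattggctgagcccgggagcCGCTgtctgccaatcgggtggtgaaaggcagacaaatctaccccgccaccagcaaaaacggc

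Over 300 bases, the PCDHAC1, PCDHGC3 and PCDHGC4 promoters had 66.0%, 59.0% and 60.7% G and C, and 27, 18 and 23 CG pairs. PCDHA11 had 37.3% and 7 CG pairs. The 47 clustered promoters had a median of 39.7% (32.3% to 66.0%), against a median of 58.3% for all genes. Those with a peak had a median of 43.0% and those without a peak 39.2% (32.3% to 63%). The 4 C-type promoters in the promoter table, which include PCDHAC2 with no peak, had a median of 61.8%.

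Few of the alternative promoters had a peak. One lay within 1 kb of the start in 15 of 53 genes (28.3%), against 72.5% of 15843 protein-coding genes in the promoter table, where 15 of the 47 matched cluster genes (31.9%) had one. The alpha family had such a peak at 4 of 15 genes, the beta family at 3 of 16 and the gamma family at 8 of 22. By type, 3 of 5 C-type genes (PCDHAC1, PCDHGC3 and PCDHGC4) and 12 of 48 alternate genes had one. PCDHAC2 and PCDHGC5 had none. A gene without a peak lies below the authors' peak calling, which is not the same as closed. The variable exons of a family resemble each other in sequence, so reads could be lost or shared between copies, and the labels do not say how such reads were treated.

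The start peaks were weak beside those of other genes. Counts scaled to the library total (CPM) were divided by peak width to compare peaks. The 15 start peaks had a median of 6.75 CPM per kb, against 7.01 for all 129536 peaks and 21.1 for the strongest peaks at the starts of the promoter table. The C-type starts were at the top. PCDHGC3 had 15.75 ± 1.58 CPM per kb (SD, n = 4), PCDHGC4 13.2 ± 0.629 and PCDHAC1 12.1 ± 1.55, and neighbours in this order overlapped in their ranges. PCDHGC3 stood above 33.7% of the start peaks of the promoter table. The 12 alternate starts ranged from 4.98 at PCDHGB3 to 10.2 at PCDHGB7, all below the 3 C-type starts in mean level. The 3 C-type peaks held 40.3% of the vehicle CPM of the 22 peaks other than the one at TAF7.

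**Figure D1:**
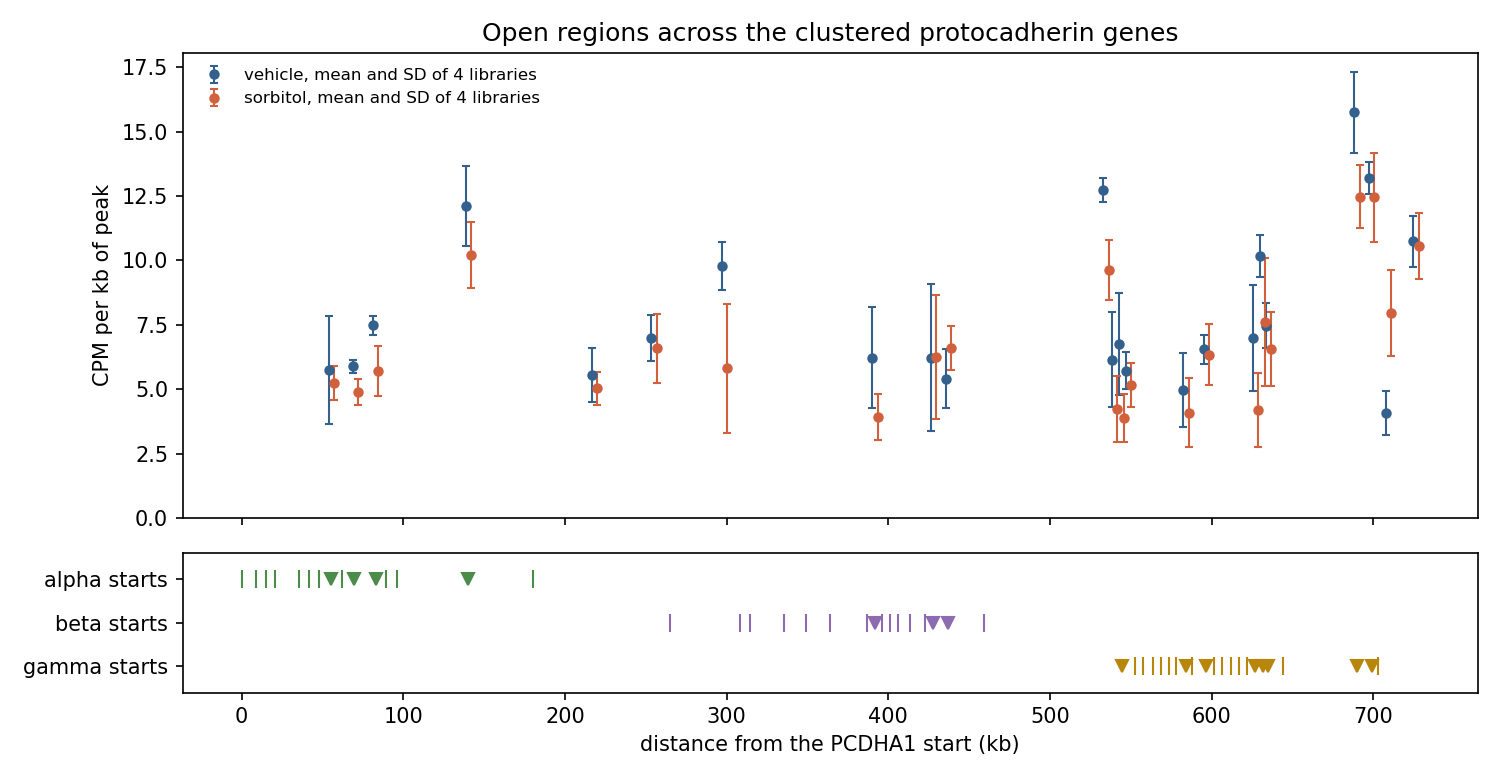
The upper panel gives CPM per kb of each of the 23 peaks (mean and SD of 4 libraries, vehicle and sorbitol offset for sight) against distance from the PCDHA1 start in kb. The lower panel marks the 53 gene starts, with triangles for the 15 that had a peak within 1 kb. The highest points are PCDHGC3 and PCDHGC4 near 690 and 699 kb, the TAF7 peak near 535 kb and PCDHAC1 near 140 kb.

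The remaining 8 peaks lay away from the starts of clustered protocadherins. One of them, on chromosome 5 at 141320162 to 141321396, spans the start of TAF7, a subunit of the general transcription factor TFIID, and is in the set through the 10 kb flank of PCDHGA1. Its 12.7 ± 0.471 CPM per kb belonged to a different gene, so counts are also given without it. A peak at 141512303 to 141512738, at the shared 3' end of the gamma genes (downstream b in the plots), had 10.7 ± 0.979. A peak between PCDHB1 and PCDHB2 (141084427 to 141084882) had 9.79 ± 0.940. Its range did not overlap that of PCDHA11, the next in order at 7.48, whereas all other neighbours in the order overlapped. The peak between the alpha and beta families (141041050 to 141041440) had 7.00 ± 0.898, and that inside the alpha constant region (141004031 to 141004646) 5.54 ± 1.05. The weakest of all, with 4.06 ± 0.859, was at 141495108 to 141495388, inside the gamma gene bodies past the last first exon, that of PCDHGC5 (downstream a in the plots).

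After 1 h in sorbitol, 5 of 15 start peaks were called lower, PCDHA11 in alpha, PCDHB8 in beta and 3 in gamma, among them PCDHGC3. A weak peak past the gamma promoters rose. None of the 5 start calls held with library factors computed from gene-end peaks. The test was edgeR's quasi-likelihood fit of all 129487 peaks past the filter, with p-values adjusted by Benjamini-Hochberg over all of them. At the threshold of 0.05, 7 of 23 peaks were lower and 1 was higher. The background was 29.1% called, 13.1% lower and 16.0% higher, over all tested peaks, and 32.8% lower and 8.74% higher at the 25203 tested peaks within 1 kb of an end of any RefSeq gene. The share of lower calls, 30.4%, was near that of gene-end peaks, and without the TAF7 peak the lower calls were 6 of 22. Only 17 of the 23 peaks lay within 1 kb of a RefSeq gene end themselves. Of all tested peaks inside genes and away from gene ends, 8.58% were lower. At an unadjusted p under 0.05 there were 11 of 23 peaks, with a background of 39.1% over all tested peaks and 51.3% at gene-end peaks. The fold change was below 0 at 21 of 23 peaks, against 48.9% of all tested peaks and 68.4% of gene-end peaks. The median log2 fold change of the 23 was -0.32, with -0.17 for gene-end peaks and 0.01 for all peaks. With library factors computed from gene-end peaks, which moved the median of all peaks to 0.19, 17 of 23 were below 0, with a median of -0.15. The lower calls were then 2, the peak between PCDHB1 and PCDHB2 and the one at TAF7, against a background of 6.70% lower and 26.3% higher. With factors from the contig peaks the lower calls were also 2, that interval and PCDHB8, and there was no higher call by edgeR. The background was then 4.04% lower and 7.04% higher. With these factors 9 of the 23 peaks had an unadjusted p under 0.05. The share of all tested peaks at that unadjusted threshold is not given here for these factors. No sorbitol library reached the vehicle range at 4 of the 23 peaks, and at 1 peak all sorbitol libraries were higher. Such separation was found in 9.47% (lower) and 17.3% (higher) of all tested peaks, and in 24.5% and 11.1% of gene-end peaks.

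**Figure D2:**
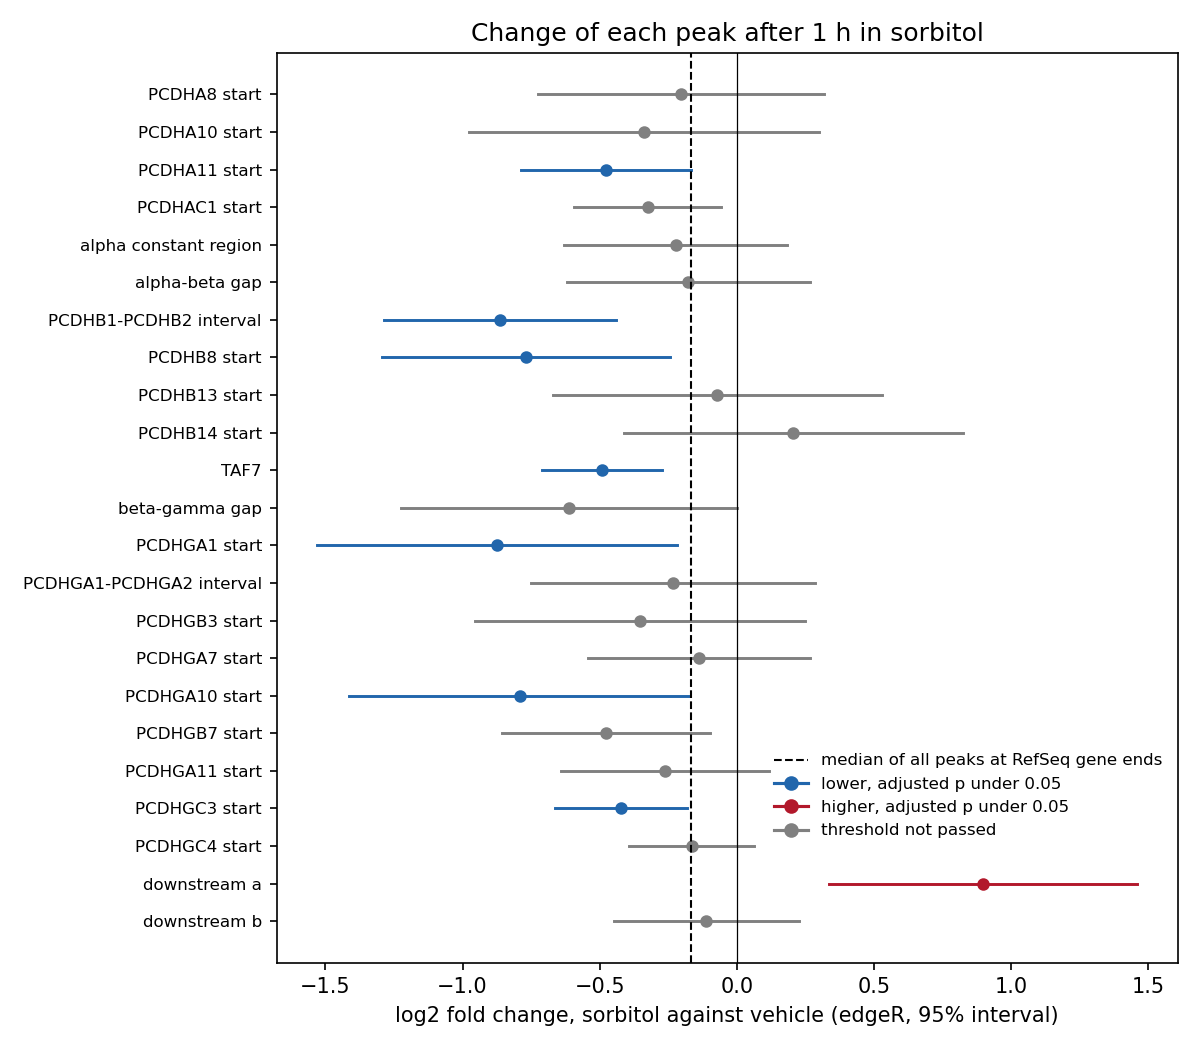
The horizontal axis gives the log2 fold change of sorbitol against vehicle with its 95% interval, and each row is 1 of the 23 peaks in order along the chromosome. The dashed line is the median of peaks at RefSeq gene ends, -0.17. The 7 lower calls are blue and the 1 higher call, the peak past PCDHGC5, is red.

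In the alpha family, PCDHA11, an alternate gene, was the peak that fell (140868743 to 140869610). It had 6.24, 6.21, 6.81 and 6.71 CPM in vehicle replicates 1 to 4 and 4.69, 6.13, 4.86 and 4.11 CPM in sorbitol replicates 1 to 4. The groups did not overlap, although sorbitol 2 came close to the vehicle libraries. The log2 fold change was -0.48 (SE 0.16, edgeR adjusted p = 0.0160). The call was lost with gene-end (adjusted p = 0.134) and contig factors (0.157), without sorbitol 4 (0.0612) and without replicate 4 of both groups (0.0758). At least part of another RefSeq gene, LOC112267934, lies within 1 kb of the same peak, and the counts cannot be assigned to either gene.

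The C-type alpha gene PCDHAC1 (140926187 to 140926976) had 9.26, 11.3, 9.18 and 8.47 CPM in vehicle and 8.16, 7.01, 7.72 and 9.40 CPM in sorbitol libraries. Sorbitol 4 lay above vehicle 1, 3 and 4, so the groups overlapped. The log2 fold change was -0.32 (SE 0.13), and the adjusted p of 0.0602 missed the threshold. Without vehicle 4 the adjusted p was 0.0277, without sorbitol 4 it was 0.0212, and without replicate 4 of both groups it was 0.00739 at a log2 fold change of -0.49. PCDHA8 and PCDHA10 had weak peaks whose midpoints lay 625 and 542 bp past the start, in the gene rather than over the promoter. Their log2 fold changes of -0.20 (95% interval -0.72 to 0.32) and -0.34 (-0.98 to 0.30) did not pass, at 10 to 47 counts per library. The PCDHA10 groups did not overlap.

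Both peaks between the alpha promoters and the beta family, the stretch where shared alpha enhancers are known to lie, gave no call. The peak in the alpha constant region had 3.74, 4.14, 2.72 and 3.05 CPM in vehicle and 3.30, 2.71, 3.56 and 2.86 CPM in sorbitol libraries. The peak between the families had 2.23, 3.05, 2.82 and 2.85 CPM in vehicle and 3.04, 3.03, 2.08 and 2.16 CPM in sorbitol libraries. In both, the groups overlapped over most of their range. The log2 fold changes were -0.22 (95% interval -0.63 to 0.18) and -0.18 (-0.62 to 0.27). Changes of either sign within these limits remain compatible with the data.

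**Figure D3:**
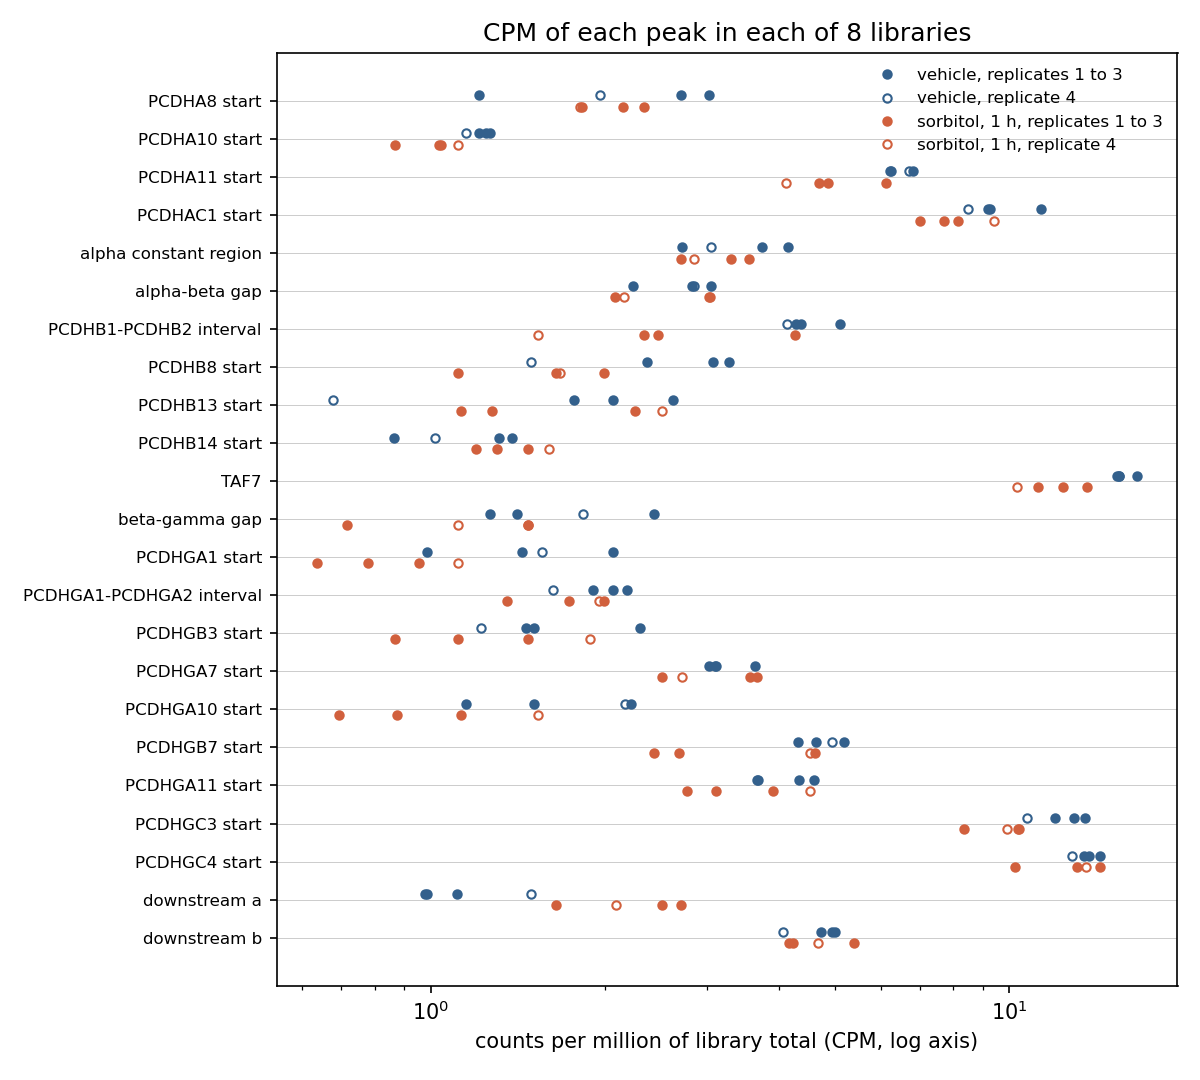
The horizontal axis, on a log scale, gives CPM of the library total, and each row holds the 8 libraries of 1 peak, with replicate 4 of each group as an open circle. Groups do not overlap at PCDHA10, PCDHA11, TAF7 and PCDHGC3, where sorbitol is lower, and at the peak named downstream a, where it is higher.

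In the beta family, a peak in the interval between PCDHB1 and PCDHB2, away from any start, had the smallest p-value of the family. It had 4.27, 4.37, 5.09 and 4.13 CPM in vehicle and 4.25, 2.47, 2.34 and 1.53 CPM in sorbitol libraries. Sorbitol 1 stayed among the vehicle values and the other 3 lay below all of them. The log2 fold change was -0.86 (SE 0.21, edgeR adjusted p = 0.00139), and this peak stayed lower past the threshold in all 18 alternative fits run for single peaks. PCDHB8 (141177624 to 141178033) had 2.37, 3.28, 3.08 and 1.49 CPM in vehicle and 1.65, 1.12, 1.99 and 1.67 CPM in sorbitol libraries. Vehicle 4 lay among the sorbitol values. Its log2 fold change was -0.77 (SE 0.26, adjusted p = 0.0215), and the call was lost without vehicle 2 (0.110), vehicle 3 (0.0843) or sorbitol 2 (0.0906) and with gene-end factors (0.0860).

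PCDHB13 and PCDHB14 did not pass. PCDHB13 (141213801 to 141214087) had 2.63, 2.07, 1.77 and 0.678 CPM in vehicle and 1.13, 1.27, 2.25 and 2.51 CPM in sorbitol libraries, with the lowest value in vehicle 4 and all sorbitol values within the vehicle range. Its log2 fold change was -0.07 (95% interval -0.67 to 0.53), which alternative fits put at -0.57 to 0.16. PCDHB14, at 0.21 (-0.41 to 0.82), was the start peak with a value above 0, and it turned to -0.01 with the loess offset.

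Between the beta and gamma families, the TAF7 peak fell. It had 15.5, 15.3, 16.6 and 15.4 CPM in vehicle and 13.6, 11.2, 12.4 and 10.3 CPM in sorbitol libraries, with no overlap, and a log2 fold change of -0.49 (SE 0.11, adjusted p = 0.000502). The call was lost with contig factors (0.113). The peak at 141326065 to 141326346, between TAF7 and PCDHGA1, had -0.61 (SE 0.30, adjusted p = 0.128).

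In the gamma family, which held 9 of the peaks, every fold change was below 0 and 3 starts passed. Of all gene-end peaks, 68.4% were below 0 and 32.8% were called lower. With gene-end factors PCDHGA7 and PCDHGC4 turned above 0, to 0.04 and 0.01. PCDHGC3, a C-type gene and the strongest start peak (141475664 to 141476444), had 13.5, 12.0, 13.0 and 10.7 CPM in vehicle and 10.3, 8.36, 10.4 and 9.89 CPM in sorbitol libraries. The groups did not overlap, with vehicle 4 next to the sorbitol libraries. The log2 fold change was -0.42 (SE 0.12, adjusted p = 0.00592), and no library left out ended the call, which was lost with gene-end (0.104) and contig factors (0.187). The neighbouring C-type gene PCDHGC4 (141484395 to 141485423) did not pass. It had 13.7, 13.5, 14.4 and 12.8 CPM in vehicle and 13.1, 14.3, 10.2 and 13.6 CPM in sorbitol libraries, where sorbitol 3 was low and the others lay within the vehicle range. Its log2 fold change was -0.16 (95% interval -0.39 to 0.06), near 0 with gene-end factors. The difference between the changes at PCDHGC3 and PCDHGC4 was not tested.

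The alternate genes PCDHGA1 and PCDHGA10 passed on few counts, 8 to 44 per library. PCDHGA1 (141330425 to 141330648) had 0.985, 1.44, 2.07 and 1.56 CPM in vehicle and 0.955, 0.637, 0.780 and 1.11 CPM in sorbitol libraries. PCDHGA10 (141412889 to 141413140) had 1.51, 1.15, 2.22 and 2.17 CPM in vehicle and 0.694, 0.876, 1.13 and 1.53 CPM in sorbitol libraries. In each, the lowest vehicle values lay among the highest sorbitol values. Log2 fold changes were -0.87 (SE 0.33, adjusted p = 0.0370) and -0.79 (SE 0.31, adjusted p = 0.0471). PCDHGA1 stayed called in 7 of 17 alternative fits and PCDHGA10 in 6 of 17. With libraries left out singly, PCDHGA1 lost its call without vehicle 2 (0.0569) or 3 (0.171) and without sorbitol 1 (0.0560), 2 (0.112) or 3 (0.0807). PCDHGA10 lost it without vehicle 1 (0.0522), 3 (0.166) or 4 (0.105) and without sorbitol 1 (0.145), 2 (0.118) or 3 (0.0727). Their calls rest on several libraries at once. With the replicate number as a block, adjusted p-values were 0.0598 and 0.0515.

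PCDHGB7 (141417449 to 141417917), the strongest alternate start, had an adjusted p of 0.05001, just above the threshold, and was not called. It had 5.19, 4.31, 4.64 and 4.95 CPM in vehicle and 2.43, 4.62, 2.69 and 4.53 CPM in sorbitol libraries. Sorbitol 1 and 3 were low, and 2 and 4 lay within the vehicle range. Its log2 fold change was -0.48 (SE 0.19). It was called lower in 5 of 18 alternative fits, whose adjusted p ranged from 0.0177 to 0.224. Those were DESeq2 size factors (0.0425), no filter (0.0499), and leaving out sorbitol 2 (0.0235), sorbitol 4 (0.0177) or replicate 4 of both groups (0.0185). PCDHGA11, PCDHGA7 and PCDHGB3 had -0.26, -0.14 and -0.35 and did not pass, as did the peak between PCDHGA1 and PCDHGA2 with -0.23.

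Past the last gamma promoter, where the shared constant exons lie, the weakest peak was the 1 that rose. The peak at 141495108 to 141495388 had 0.985, 0.977, 1.11 and 1.49 CPM in vehicle and 1.65, 2.71, 2.51 and 2.09 CPM in sorbitol libraries. No library overlapped. The log2 fold change was 0.90 (SE 0.28, adjusted p = 0.0119), from 15 to 22 counts in vehicle and 19 to 34 in sorbitol libraries. Without sorbitol 2 it was 0.79 (adjusted p = 0.0526), and with contig factors 0.86 (0.0551). The peak at the shared gamma 3' end had 4.73, 4.94, 4.99 and 4.07 CPM in vehicle and 5.38, 4.22, 4.16 and 4.67 CPM in sorbitol libraries. These groups overlapped, and the log2 fold change was -0.11 (95% interval -0.45 to 0.23), which turned to 0.06 with gene-end factors. The difference between these neighbouring peaks was not tested.

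Sums over stretches of the clusters are given as a description, with no test. The 5 alpha peaks held 22.9 ± 2.12 CPM in vehicle and 19.2 ± 0.295 in sorbitol libraries (SD, n = 4). The 4 beta peaks held 9.95 ± 1.78 and 7.44 ± 1.05, and the 9 gamma peaks 44.8 ± 2.43 and 37.8 ± 2.86. The 2 downstream peaks held 5.82 ± 0.238 and 6.85 ± 0.161, where the weaker peak went from 1.14 to 2.24 CPM and the stronger from 4.68 to 4.61. By type, the 3 C-type starts held 13.6% less CPM after sorbitol and the 12 alternate starts 18.7% less. All 23 peaks together held 96.2 to 107.1 CPM in vehicle libraries and 85.1 to 89.0 in sorbitol libraries.

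**Figure D4:**
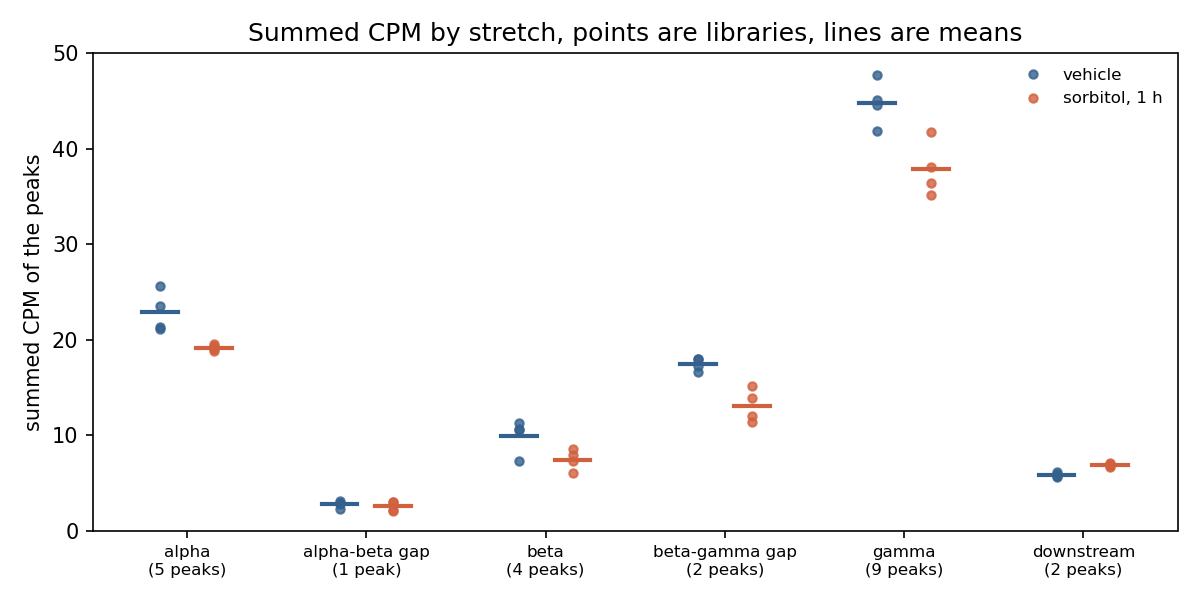
The vertical axis gives CPM summed over the peaks of each stretch, with 4 vehicle and 4 sorbitol libraries as points and their means as lines. Alpha and gamma sums are lower in every sorbitol library than in any vehicle library, beta sums overlap, and downstream sums are higher. The gamma groups nearly touch, with 41.73 CPM in sorbitol 4 and 41.81 in vehicle 4.

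Protocadherin genes outside the clusters, which each have their own complete gene, had mostly higher calls. Of 306 peaks at 12 such genes with their 10 kb flanks, 186 were higher (60.8%) and none was lower (edgeR), against 16.0% and 13.1% of all tested peaks. Lower values at an unadjusted p under 0.05 were found at 2 of these peaks, and DESeq2 also called none lower and 156 higher, whereas the loess offset called 2 lower and leaving out single libraries called up to 1. With contig factors 88 were higher, where 7.04% of all tested peaks were. The median log2 fold change was 0.54. PCDH9, a gene of 928 kb on chromosome 13, held 194 of the peaks, 143 of them higher. PCDH7 had 17 of 29 higher and PCDH15 had 14 of 48. At least 1 higher peak was found in 9 of the 12 genes. PCDH11X, PCDH12 and PCDH19 had none, with median log2 fold changes of -0.51, -0.19 and -0.12 over 3, 3 and 4 peaks. Within 1 kb of RefSeq gene ends the list had 27 peaks, of which 13 were higher and 0 lower, against 8.74% and 32.8% of all gene-end peaks. The other 279 lay away from gene ends. Of all tested peaks inside genes and away from gene ends, 18.9% were higher and 8.58% lower. Peaks of 1 gene are not independent, and the difference between the clustered and other protocadherins was not tested.

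Genes known to act on clustered protocadherin chromatin, from CTCF and cohesin subunits to DNA methyltransferases, had 139 peaks at 18 genes. Among them, 26 were higher (18.7%) and 22 lower (15.8%), near the 16.0% and 13.1% of all tested peaks, and the median log2 fold change was 0.03. CTCF had 1 higher and 1 lower of 7 peaks. SMCHD1, a chromatin protein known to restrain these clusters, had 1 higher and 0 lower of 3. NIPBL, the cohesin loader, had 5 higher and 1 lower of 13. With gene-end factors the list had 35 higher and 8 lower, beside 26.3% and 6.70% of all tested peaks. With contig factors it had 10 and 2, beside 7.04% and 4.04%.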

How the data were processed

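The authors deposited raw counts per peak for 8 libraries on a shared peak set. Per the submitters' processing notes, the tools included Trim Galore 0.6.10, BWA 0.7.17, SAMtools 1.22 and MACS2 2.2.9.1, on hg38, with no role or order given. Whether reads or fragments were counted, and how peaks were merged, is not given in the sources used here. The table has peaks that start at 0, so 1 was added to each start to give positions counted from 1.

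The filter filterByExpr of edgeR kept 129487 of the 129536 peaks, at a minimum count of 10 and a minimum total of 15. The quasi-likelihood test of edgeR 4.0.16 (R 4.3.3) used TMM factors and treatment as the only term, with Benjamini-Hochberg adjustment over all tested peaks and a threshold of 0.05. Intervals of 95% come from the same fit and are not adjusted. Fold changes use TMM factors and CPM use library totals, so they can differ slightly. Methods were tried on simulated counts, whose outcome is not given here and does not bear on the calls. Gene and promoter positions come from RefSeq (GRCh38.p14).

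The members and lists were chosen with earlier results of these data known. By rule, the text names the 5 strongest peaks, the strongest start peak and the smallest p-value per stretch, 2-fold calls (there were none), and the strongest peaks after the last alpha first exon and the last gamma start. Other members were named after their values were seen, and so were the CGCT motif forms. Alternatives were DESeq2 size factors, library totals, a loess offset, factors from gene-end or contig peaks, the Wald test of DESeq2 1.42.0, leaving out the filter, keeping means from 50 counts upward, a threshold of 0.01, a replicate block and each library left out. Standard errors of the log2 fold change ran from 0.11 to 0.33, at 8 to 329 counts per peak and library. Duplicate reads without molecular identifiers are not independent molecules.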

Additional observations from a re-analysis of the deposited data

Results flagged for a closer look

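In 2 of 46 groups of 4 values 1 library lay apart by Dixon's criterion, and about 2.3 such groups arise by chance. Both were vehicle 3, the library with the highest total of counts in peaks. At the TAF7 peak its value was 16.59 CPM, while vehicle 1, 2 and 4 had 15.3 to 15.5, all above the highest sorbitol value of 13.6. At the PCDHGA7 start it had 3.631 CPM against 3.02 to 3.12, and there the groups overlapped.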

How the results depend on the processing

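The main counts were 7 lower and 1 higher peak of 23, beside 13.1% lower and 16.0% higher of all tested peaks. Lower calls numbered 2 with gene-end factors, 2 with contig factors and 3 at the threshold of 0.01. They numbered 4 with the count minimum of 50 (mean over libraries), which 9 peaks passed. Over all tested peaks, lower shares were 6.70%, 4.04%, 8.52% and 19.0% in these settings, in that order. Higher calls numbered 0 with contig factors, beside 7.04% of all tested peaks. They also numbered 0 with the count minimum (beside 17.7%) and at the threshold of 0.01 (beside 9.45%). Fewer peaks tested and the threshold itself account for those with the count minimum and at 0.01; for the contig factors the cause was not tested. The remaining settings gave 5 to 9 lower calls and 1 higher, among them 5 and 1 with the DESeq2 Wald test. In them 9.77% (library totals) to 13.8% (DESeq2 size factors) of all tested peaks were lower, and 12.5% to 20.2% higher. With libraries left out, 10.7% to 13.8% of all tested peaks were lower and 12.9% to 16.3% higher. Among the 23 peaks these fits gave 4 to 8 lower and 0 to 1 higher calls. The 4 came without vehicle 3 and the 0 without sorbitol 2, and the 8 without replicate 4 of both groups, a setting chosen after seeing the data, or without sorbitol 4 alone. Gene bodies without flanks, also chosen later, gave 6 lower and 1 higher of 20. With gene-end factors PCDHGC4 turned to 0.00932 and the peak at the gamma 3' end to 0.0649; these factors moved the median of all peaks from 0.01 to 0.19. Of 211 refits of single peaks, 171 kept direction and side of the threshold, 34 lost a call and 4 gained one; these cover the 12 peaks named by rule or called. Over 400 refits of all 23 peaks, 34 calls were lost and 10 gained, 4 at PCDHAC1, 5 at PCDHGB7 and 1 at the peak between TAF7 and PCDHGA1 (0.0392 with the loess offset).

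Libraries of the same number did not deviate together, with correlations of same-numbered deviations of 0.000561, 0.00691, -0.034 and -0.145. In a fit that adds a replicate block, 5 peaks were lower and 1 higher, beside 12.1% and 14.5% of all tested peaks. The lost calls were PCDHGA1 and PCDHGA10. Those peaks had 8 to 44 counts per library.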
